A study of Mus musculus with 16 samples.

Results

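The circadian clock genes described here are 10 transcripts, Nr1d1, Nr1d2, Dbp, Tef, Per1, Per2, Per3, Cry1, Arntl and Clock, of the 15895 genes listed for lymphatic endothelial cells of the mouse heart. They were chosen by gene symbol, as a list drawn up with the group values of these same libraries known. Their levels and differences between groups are therefore given as a description, without p-values. All 10 were in the table, each on 1 row.

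The libraries were RNA sequencing libraries of cells sorted from dissociated hearts of CD1 mice as negative for the leukocyte antigen CD45 and positive for the endothelial antigen CD31 and for podoplanin, which marks lymphatic endothelium. The 4 groups, with 4 libraries each, were sham-operated or infarcted mice, with surgery at postnatal day 1 (sham P1, MI P1) or at day 56 (sham P56, MI P56), and tissue was taken 3 days after surgery. Infarction (MI) was made by ligating a coronary artery, and sham animals had the procedure without ligation. The series compares an age at which the mouse heart regenerates with one at which it scars. No group carried a transgene or a drug treatment of interest. Neonatal libraries came from pools of 6 ventricles per digestion, from pups of unstated sex that were decapitated, and the tissue was cut up and agitated in enzyme. Adult libraries came from males of 8 weeks that were operated on under isoflurane and anaesthetised again at harvest, and enzyme was perfused through the heart, for less time than the neonatal digestion took. Age can therefore not be told apart from digestion, anaesthesia, pooling or sex. The animals were kept in alternating light and dark, and the labels give no hour of collection, so a difference in the phase of the clock and a difference in its mean level cannot be told apart in any comparison below. The libraries of a group are not tied to separate litters or animals in the labels, so the spread between them may be technical.

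In mammalian cells the clock is a feedback loop of transcription. The proteins CLOCK and BMAL1 (the product of Arntl) bind E-boxes and switch on the Per and Cry genes, whose proteins return to the nucleus and inhibit CLOCK and BMAL1. A linked loop runs through REV-ERBα and REV-ERBβ, the repressors made from Nr1d1 and Nr1d2, which act at RORE elements, among them those of Arntl. Dbp and Tef encode activators of the PAR bZIP family that carry the rhythm to output genes through D-boxes. Nearly every cell type of the heart runs this loop, endothelium included, and in most adult tissues Nr1d1 and Dbp peak in the day while Arntl peaks at the opposite phase.

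These elements can be read in the members' own promoters. The windows searched were 300 bases long, from 250 bases before each transcription start to 50 after it, from RefSeq on GRCm38.p6, and 9 of the 10 members matched an entry. The E-box CACGTG was found, on either strand, in windows of Tef, Per1 and Cry1, and it occurs in 7.15% of the 32851 promoter windows of the genome. The related letters CACGTT were found in windows of Nr1d1 and Cry1 (4.68% of all windows). The 250 bases before the start of the 3 genes with an E-box are printed, with the E-box in capitals, to show where it sits, 5′ to 3′ on the strand of the gene.
Tef, chr15:81802423-81802672, plus strand: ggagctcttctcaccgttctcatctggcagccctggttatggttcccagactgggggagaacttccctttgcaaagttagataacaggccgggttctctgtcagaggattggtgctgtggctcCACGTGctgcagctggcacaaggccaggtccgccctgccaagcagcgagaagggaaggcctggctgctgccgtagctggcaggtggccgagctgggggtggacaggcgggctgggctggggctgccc
Per1, chr11:69098699-69098948, plus strand: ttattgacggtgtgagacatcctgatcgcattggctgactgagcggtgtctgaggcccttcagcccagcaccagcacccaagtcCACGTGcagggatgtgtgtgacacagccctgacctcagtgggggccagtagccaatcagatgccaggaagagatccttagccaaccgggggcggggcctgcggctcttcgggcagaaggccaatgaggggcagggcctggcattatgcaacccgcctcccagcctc
Cry1, chr10:85185055-85185304, minus strand: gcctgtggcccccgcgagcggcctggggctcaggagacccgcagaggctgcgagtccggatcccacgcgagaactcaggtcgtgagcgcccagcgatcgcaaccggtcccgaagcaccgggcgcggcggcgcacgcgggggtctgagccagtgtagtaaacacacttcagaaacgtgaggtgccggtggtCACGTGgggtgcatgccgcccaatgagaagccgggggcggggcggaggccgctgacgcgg

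The window of Per3 held 2 copies of the D-box, searched as TTATGTAA or TTACGTAA and present in 1.06% of all windows. It is printed with both copies in capitals, and was picked for display after its matches had been seen.
Per3, chr4:151044666-151044915, minus strand: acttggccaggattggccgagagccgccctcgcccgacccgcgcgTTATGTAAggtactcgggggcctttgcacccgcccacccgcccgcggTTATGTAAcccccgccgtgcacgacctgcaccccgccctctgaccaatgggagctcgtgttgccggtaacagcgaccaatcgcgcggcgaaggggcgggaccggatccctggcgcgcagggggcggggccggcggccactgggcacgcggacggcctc
One of the 2 windows of Arntl held an RORE, searched as ANTAGGTCA or ANTGGGTCA and present in 1.45% of all windows. Its first base lies 29 bases after the transcription start, and 30 bases around it are printed with the match in capitals.
Arntl, chr7:113207529-113207558, plus strand: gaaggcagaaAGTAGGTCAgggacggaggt
The cyclic AMP element TGACGTCA, found in 1.79% of all windows, was in no window of the 9 members. E-boxes and the related letters were not found in the windows of Nr1d2, Dbp, Per3, Arntl and Clock. A match is a run of letters in this window only, and elements elsewhere in these genes were not searched.

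Depth was sufficient to count most members in 13 of the 16 libraries. These had a read on 14121 to 15821 of the listed genes. They held 6709566 to 12918569 reads outside mitochondrial ribosomal RNA and Uqcrc1, which encodes a mitochondrial protein. Uqcrc1 took 47.3% of the reads in sham P1 library 5, which held the fewest other reads, and at most 4.11% in the rest of the 13. That library is 1 of the 2 behind each sham P1 mean below. In the libraries left out Uqcrc1 took 18.1% to 99.8%. The other 3 libraries, sham P1 libraries 1 and 2 and MI P56 library 5, had a read on 7746 to 9451 genes. No member had more than 9 reads in sham P1 library 2 or MI P56 library 5, and in sham P1 library 1 Per2, Per3 and Arntl had 1 read each while Nr1d2 had 711. Values below are from the 13 libraries, of which 6 are neonatal (2 sham P1 and 4 MI P1) and 7 adult (4 sham P56 and 3 MI P56), and the differences between ages from the fit with all 16 are given beside them. Values are in the deposited unit, a normalised read count in which 3 reads corresponded to 0.0489 to 0.109 in these libraries. Libraries are called by the number in the table, 1, 2, 3 or 5, and the number 5 is not among the numbers of the labels, so the group of those libraries was taken from the column name.

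The sorted cells carried lymphatic transcripts in every group. Of 7 lymphatic markers (Prox1, Lyve1, Flt4, Pdpn, Reln, Ccl21a and Mmrn1) 6 were in the table, none of these 6 was at 0 in every library of a group, and none passed the test in any of the 5 comparisons. Transcripts of other cells were present too and differed with age and infarction. The summed value of 9 cardiomyocyte markers was 148 to 224 in neonatal sham, 101 to 343 in neonatal MI, 1276 to 2316 in adult sham and 321 to 568 in adult MI libraries. For 7 markers of blood endothelium the sums were 119 to 144, 159 to 268, 491 to 858 and 193 to 402 in the same order, and for 10 fibroblast markers 3092 to 6422, 1821 to 5402, 838 to 3973 and 3735 to 7993. For 7 pericyte and smooth muscle markers they were 103 to 212, 112 to 288, 449 to 1152 and 208 to 335 (3 of 7 passed with higher values in adult sham than in neonatal sham), and for 8 leukocyte markers 18.3 to 18.9, 9.07 to 31.1, 6.53 to 9.82 and 16.7 to 87.1 (2 of 5 tested were higher in MI P56 than in sham P56). For 6 mesothelial markers they were 24.8 to 41.7, 51.9 to 91.4, 10.8 to 112 and 13.5 to 36.8. None of these markers in the table was at 0 in every library of a group. In bulk RNA, fewer cells of a type and less RNA per cell cannot be told apart.

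**Figure D1:**
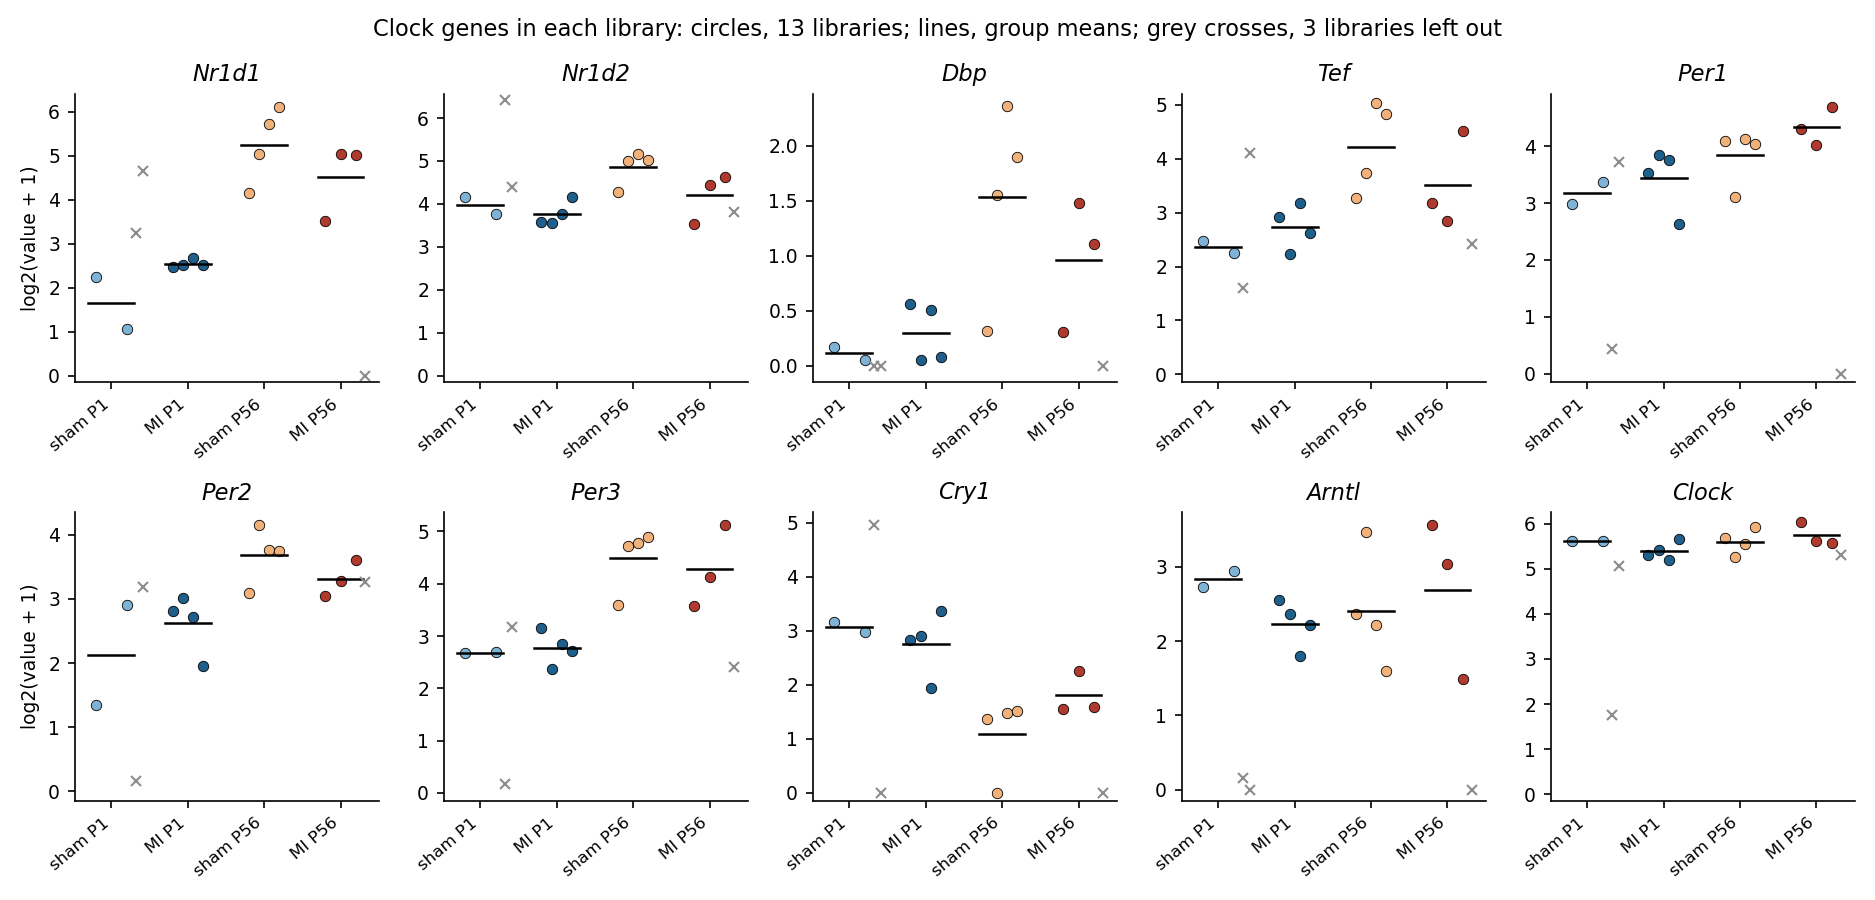
Each panel shows 1 clock gene, with the group on the horizontal axis and log2(value + 1) on the vertical axis. Circles are the 13 libraries, short lines are group means, and grey crosses are the 3 libraries with a read on fewer than 10000 genes. Nr1d1 is the member with the widest gap, with every adult circle above every neonatal circle, and Cry1 is the member whose adult sham circles all lie below its neonatal sham circles.

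Nr1d1 (chromosome 11, 98767932 to 98775333, minus strand, GRCm38), which encodes the repressor REV-ERBα, was the member that differed most between the ages. Its value was 3.73 in sham P1 library 3 and 1.09 in library 5, and 4.55, 4.77, 5.38 and 4.71 in MI P1 libraries 1, 2, 3 and 5. In sham P56 it was 16.9, 31.9, 51.7 and 68.3 in libraries 1, 2, 3 and 5, and in MI P56 it was 10.5, 31.9 and 31.5 in libraries 1, 2 and 3. Every adult library was above every neonatal one, and both adult groups had their lowest value in library 1. The sham means were 2.41 ± 1.87 (SD, n = 2) and 42.2 ± 22.5 (n = 4), a ratio of 17.5 and a difference of 3.61 ± 0.48 (SE) on the log2(value + 1) scale. After infarction the means were 4.85 ± 0.37 (n = 4) and 24.6 ± 12.2 (n = 3), a ratio of 5.07 and a difference of 1.98 ± 0.43. With all 16 libraries these differences were 2.46 ± 0.85 and 0.85 ± 0.85, and without MI P56 library 1 the second was 2.48.

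Nr1d2 (chromosome 14, 18204054 to 18239127, minus strand) encodes the second repressor of this pair, REV-ERBβ. The sham P1 libraries held 17.0 and 12.6, the MI P1 libraries 10.9, 10.9, 12.6 and 17.0, the sham P56 libraries 18.3, 31.2, 34.6 and 31.8, and the MI P56 libraries 10.6, 20.8 and 23.5. Adult sham libraries were all above neonatal sham libraries, while the infarcted groups overlapped through MI P56 library 1. The difference between ages was 0.90 ± 0.33 in sham and 0.43 ± 0.29 after infarction, and 0.18 ± 0.50 and 0.33 ± 0.50 with all 16 libraries. The repressor genes thus differed by unlike amounts, Nr1d1 by 3.61 and Nr1d2 by 0.90 on the same scale in sham.

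Dbp (chromosome 7, 45705088 to 45710203, plus strand) was close to the limit of counting in neonatal cells. Sham P1 libraries had 6 and 1 reads and MI P1 libraries 27, 2, 17 and 3 reads, against 11, 75, 228 and 160 reads for sham P56 and 12, 83 and 71 for MI P56. The corresponding values were 0.127 and 0.0362, then 0.474, 0.0343, 0.424 and 0.0546, then 0.247, 1.94, 4.12 and 2.72, and last 0.235, 1.79 and 1.16. Adult libraries other than library 1 of each group were above all neonatal libraries, and both adult libraries numbered 1 lay among the MI P1 values. Dbp passed the filter on low values (at least 1 in at least 4 libraries) only through 5 adult libraries, so its differences of 1.42 ± 0.45 in sham and 0.67 ± 0.40 after infarction carry that choice, and no fold is given. In the fit with 16 libraries they were 1.48 ± 0.39 and 0.42 ± 0.39. The exons of Dbp share 539 bases, 18.0% of their length, with Sphk2 on the other strand. Those of Nr1d1 share 263 bases, 8.55%, with Thra. Whether reads were counted by strand is not given in the sources used here, so reads from these neighbours cannot be told apart in the shared bases.

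Tef (chromosome 15, 81802421 to 81826861, plus strand), the other PAR bZIP member, was well covered in both ages. Its sham P1 values were 4.54 and 3.77, its MI P1 values 6.53, 3.67, 8.03 and 5.13, its sham P56 values 8.63, 12.4, 31.9 and 27.6, and its MI P56 values 8.03, 6.21 and 21.9. The sham groups did not overlap, with the adult libraries 3 and 5 far above libraries 1 and 2. After infarction the ages overlapped through MI P56 library 2, MI P56 library 1 lay just above the highest MI P1 library (both 8.03 when rounded), and library 3 lay far above. The difference was 1.86 ± 0.49 in sham (a ratio of means of 4.85) and 0.78 ± 0.43 after infarction, where leaving out MI P56 library 3 gave 0.28. The fit with 16 libraries gave 1.62 ± 0.59 and 0.51 ± 0.59.

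The 3 period genes encode inhibitors of CLOCK and BMAL1, and their differences were unequal. Per3 (chromosome 4, 151003652 to 151044665, minus strand) was at 5.36 and 5.43 in neonatal sham, at 7.87, 4.19, 6.23 and 5.55 in neonatal MI, at 11.0, 25.5, 26.4 and 28.6 in adult sham and at 10.9, 16.5 and 33.9 in adult MI libraries. All 7 adult values lay above all 6 neonatal ones. The difference between ages was 1.82 ± 0.41 in sham (ratio 4.24) and 1.50 ± 0.36 after infarction (ratio 3.43), and 2.32 ± 0.63 and 1.04 ± 0.63 with all 16 libraries. Nr1d1, Per2 and Per3 were the members in which no adult library overlapped any neonatal one.

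Per2 (chromosome 1, 91415982 to 91459324, minus strand) was at 1.54 and 6.48 in neonatal sham, at 6.04, 7.07, 5.56 and 2.89 in neonatal MI, at 7.58, 16.8, 12.5 and 12.5 in adult sham and at 7.27, 8.67 and 11.2 in adult MI libraries. All adult values lay above all neonatal ones, narrowly after infarction, where the nearest were 7.07 and 7.27. The difference was 1.57 ± 0.42 in sham, and it dropped to 0.79 without sham P1 library 3. After infarction it was 0.69 ± 0.37, and with all 16 libraries the differences were 1.79 ± 0.58 and 0.67 ± 0.58.

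Per1 (chromosome 11, 69095217 to 69109960, plus strand) responds in many cells to glucocorticoid and to cyclic AMP as well as to the clock. Its values were 6.92 and 9.35 in neonatal sham, 10.6, 13.4, 12.6 and 5.18 in neonatal MI, 16.003, 7.63, 16.5 and 15.4 in adult sham and 18.6, 15.3 and 24.8 in adult MI libraries. In sham the ages overlapped through sham P56 library 2, whereas after infarction the adult libraries were all above the neonatal ones. The difference was 0.66 ± 0.37 in sham and 0.89 ± 0.33 after infarction. With all 16 libraries the former was 1.21 ± 0.81 and the latter -0.19 ± 0.81, with no read of Per1 in MI P56 library 5.

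Cry1 (chromosome 10, 85131700 to 85185064, minus strand), the cryptochrome repressor, was the member with the largest difference in the opposite direction. The sham P1 libraries stood at 7.97 and 6.92, the MI P1 libraries at 6.13, 6.45, 2.82 and 9.37, the sham P56 libraries at 1.59, 0, 1.77 and 1.85, and the MI P56 libraries at 1.94, 3.79 and 2.00. Adult sham values were all below neonatal sham values, and after infarction only MI P56 library 2 reached into the neonatal range. These values rest on 378 and 191 reads in sham P1 and on 71, 0, 98 and 109 in sham P56, where 3 reads correspond to 0.0776 in library 2. The difference was -1.99 ± 0.47 in sham and -0.96 ± 0.42 after infarction, and -1.69 ± 0.77 and -1.41 ± 0.77 with all 16 libraries. Its paralogue Cry2 had sham means of 8.31 at P1 and 7.92 at P56, MI means of 7.68 and 7.25, and differences between ages of -0.16 ± 0.41 in sham and -0.10 ± 0.36 after infarction.

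The activators Arntl and Clock showed no gap between ages. Arntl (chromosome 7, 113207465 to 113314126, plus strand) was at 5.65 and 6.67 in neonatal sham, at 4.85, 4.17, 2.49 and 3.66 in neonatal MI, at 4.15, 10.1, 3.64 and 2.02 in adult sham and at 10.8, 7.18 and 1.81 in adult MI libraries. The adult groups spanned more than the whole neonatal range. The difference was -0.43 ± 0.52 in sham and 0.46 ± 0.46 after infarction, with the opposite signs with all 16 libraries (0.95 ± 0.77 and -0.21 ± 0.77). Clock (chromosome 5, 76209868 to 76304792, minus strand), the partner of BMAL1, was at 48.4 and 48.0 in neonatal sham, between 35.7 and 49.5 in neonatal MI, between 37.6 and 59.7 in adult sham and between 46.6 and 65.3 in adult MI libraries. Its difference was -0.01 ± 0.24 in sham and 0.35 ± 0.21 after infarction. These were 1.09 ± 0.59 with all 16 libraries, where the median of all genes stood at 0.36, and 0.24 ± 0.59.

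Set per kilobase of exon, the order of the members was unlike between the ages. In sham P1 Clock led with a mean of 3.51 per kilobase, followed by Nr1d2 at 2.73 and Cry1 at 2.23, while Nr1d1 was sixth at 0.783 and Dbp last at 0.0272. In sham P56 Nr1d1 led at 13.7 per kilobase, followed by Nr1d2 at 5.36, Clock at 3.53 and Tef at 2.56, and Cry1 was last at 0.391. In MI P56 Nr1d1 again led, at 8.00, with Clock at 3.89 and Per1 at 3.48 behind it. Clock thus stood at a like level per kilobase in both sham groups, with Nr1d1 below it in neonates and above it in adults.

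**Figure D2:**
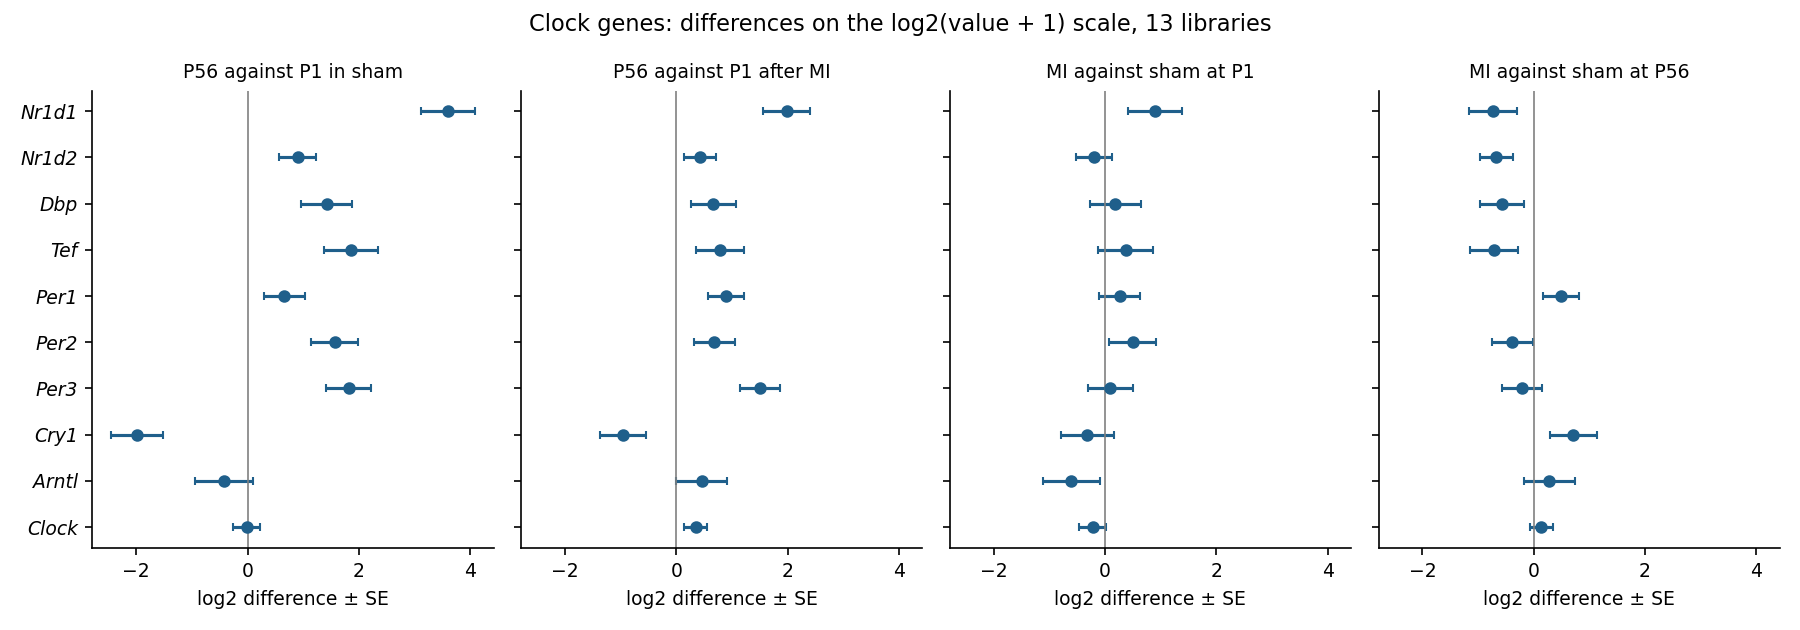
Points are the differences between group means on the log2(value + 1) scale from the fit to 13 libraries, bars are 1 SE, and each panel is 1 comparison. Between ages in sham, Nr1d1 is farthest to the right at 3.61 and Cry1 farthest to the left at -1.99, and in the panels of MI against sham no member is more than 1 unit from 0.

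Counted over the members, 7 of the 10 were higher and 3 lower at P56 in sham, and 9 higher and 1 lower after infarction. The median difference was 1.16 in sham and 0.68 after infarction, against medians over all 13033 genes tested of 0.00 and 0.01. In sham, 6 members passed an adjusted p under 0.05 in limma, namely Nr1d1, Dbp, Tef, Per2 and Per3 with higher and Cry1 with lower values, where 13.2% of all genes passed. After infarction Nr1d1 and Per3 passed, where 5.35% of all genes did. Since the list was drawn up with these comparisons known, nothing is read from the counts. By edgeR 3 passed in sham (Nr1d1, Tef and Per3; 10.8% of all genes) and the same 2 after infarction (3.73%), and by DESeq2 the same 6 (16.5%) and the same 2 (7.86%). With all 16 libraries Dbp and Per3 passed in sham (3.91% of all genes) and 0 members after infarction (0.106%). In sham the groups did not overlap for 7 members, those 6 and Nr1d2, against 33.0% of all genes, and after infarction for Nr1d1, Per1, Per2 and Per3, against 20.6%.

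Single libraries bore on several of these calls. Without sham P1 library 3 or without library 5, which leaves 1 sham P1 library assumed to vary like the other groups, Tef, Per3 and Cry1 no longer passed in sham, and neither did Per2 without library 3. Over the 13 fits that each left out 1 library, the smallest sham difference of Nr1d1 was 3.02. That of Dbp ran from 1.14 to 1.82, and Dbp kept its call in only 4 of these fits. Dbp passed the filter only through 5 adult libraries, and the list was drawn up with these comparisons known. Whether a member kept or lost its call is therefore a description and not a test. After infarction Nr1d1 did not pass without MI P56 library 2 or 3, and Per3 did not pass without MI P1 library 2 or MI P56 library 2 or 3.

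At P1 the differences of MI against sham ran from -0.60 ± 0.52 for Arntl to 0.90 ± 0.48 for Nr1d1, and all 10 were smaller than 2 SE. None passed in limma, edgeR or DESeq2, in which 0%, 0% and 0.0537% of all genes passed, and none had an unadjusted limma p under 0.05, as 3.72% of all genes did. The neonatal groups did not overlap for Nr1d1, higher after infarction, and for Arntl, lower after infarction, against 16.2% of all genes, and the sham side of both rests on 2 libraries. The sign for Nr1d1 turned with all 16 libraries (-0.25 ± 0.85), as did that for Arntl (0.78 ± 0.77).

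At P56 no member passed the test of MI against sham. The differences of MI against sham were -0.73 ± 0.43 for Nr1d1, -0.67 ± 0.29 for Nr1d2, -0.57 ± 0.40 for Dbp, -0.71 ± 0.43 for Tef and -0.38 ± 0.37 for Per2, and 0.50 ± 0.33 for Per1 and 0.71 ± 0.42 for Cry1. This held in limma (3.42% of all genes passed), edgeR (2.62%) and DESeq2 (6.64%), and Nr1d2 alone had an unadjusted limma p under 0.05, as did 17.1% of all genes. Only for Cry1, higher after infarction, did the groups not overlap, against 13.8% of all genes. The adult infarcted libraries differed from each other by as much as the groups did: without MI P56 library 1 the difference of Nr1d1 was -0.23, and that of Per3 moved from -0.22 to 0.13. Per1 turned to -0.59 ± 0.81 with all 16 libraries.

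The response to infarction was also compared between the ages, as the difference of the 2 responses. It was -1.63 ± 0.65 for Nr1d1, which was 0.90 higher after infarction at P1 and 0.73 lower at P56, and between -1.08 ± 0.65 for Tef and 1.03 ± 0.63 for Cry1 for the other 9 members. None of the 10 passed in limma (0.483% of all genes), edgeR (0.338%) or DESeq2 (2.49%), and Nr1d1 alone had an unadjusted limma p under 0.05, as did 10.9% of all genes. With all 16 libraries no member passed in any of the 3 comparisons that involve infarction, where 0% of all genes passed at P1, 0.174% at P56 and 0.00755% for the difference of the responses.

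**Figure D3:**
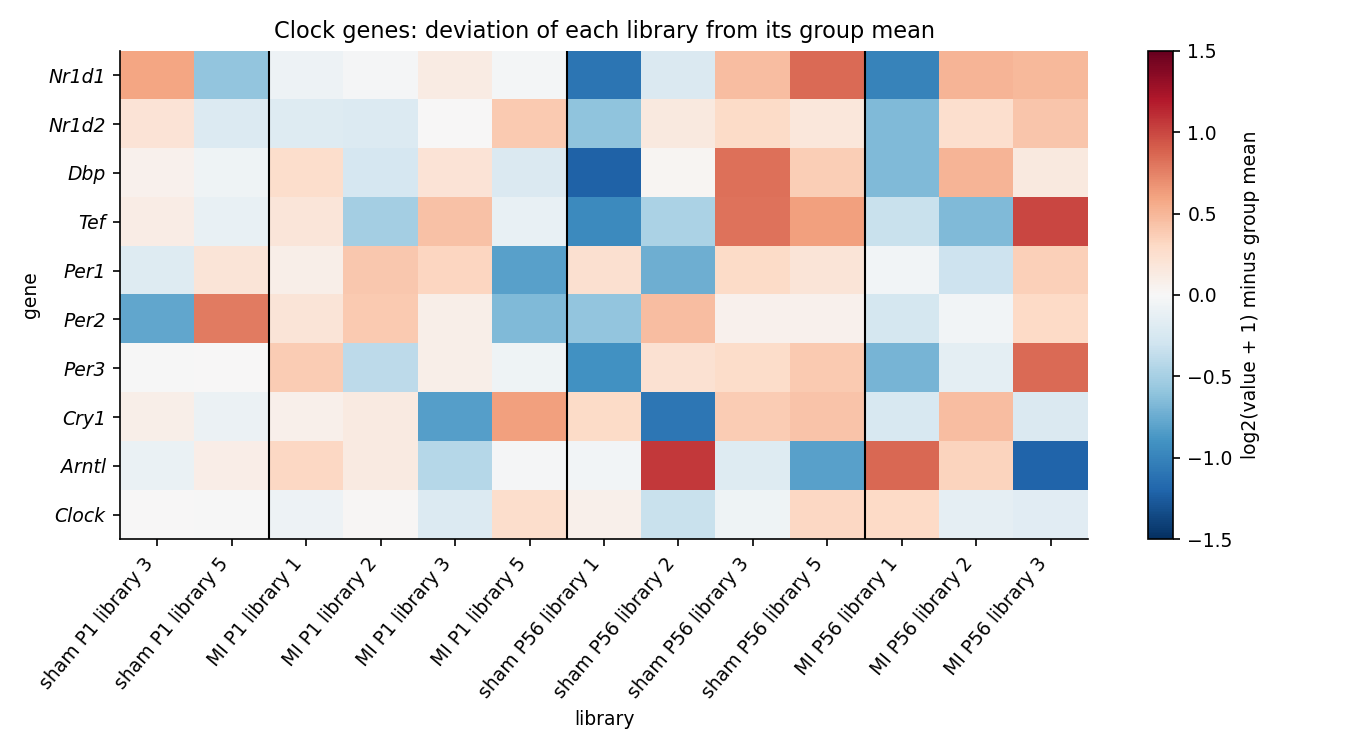
Each cell is the deviation of 1 library from its group mean on the log2(value + 1) scale, with genes in rows and the 13 libraries in columns, and red above and blue below the mean. Sham P56 library 1 and MI P56 library 1 are blue for Nr1d1, Nr1d2, Dbp, Tef, Per2 and Per3, and the row of Arntl is red in MI P56 library 1 where these are blue.

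Libraries of 1 group differed in several members together. In sham P56, library 1 was the lowest of the 4 for Nr1d1, Nr1d2, Dbp, Tef, Per2 and Per3, while libraries 3 and 5 held the highest value for 8 of the 10 members. In MI P56, library 1 was the lowest of the 3 for 6 members and the highest for Arntl and Clock. Deviations from the group mean of a single member reached -1.21 for Dbp in sham P56 library 1 and -1.20 for Arntl in MI P56 library 3. In MI P1 the 4 values of Nr1d1 lay between 4.55 and 5.38, but those of Cry1 ran from 2.82 to 9.37 and those of Per1 from 5.18 to 13.4. Library 5 of MI P1 was below its group mean for 7 of the 10 members. Library 1 of sham P56 had the largest sum of cardiomyocyte markers of its group, 2316, and library 5, with the highest Nr1d1, had the smallest, 1276. Leukocyte and mesothelial sums were also largest in that library 1, at 9.82 and 112. Pericyte and smooth muscle markers ran the other way, with the smallest sum in library 1, 449, and the largest in library 5, 1152. In MI P56 libraries 1, 2 and 3 those sums were 208, 335 and 332. Fibroblast sums were smallest in library 1 of both adult groups, 838 and 3735. Blood endothelium sums in sham P56 libraries 1, 2, 3 and 5 were 509, 823, 491 and 858. Sums of the 6 lymphatic markers were 3065, 2269, 2327 and 1735 in the same libraries. In MI P56 libraries 1, 2 and 3 the lymphatic sums were 2344, 1532 and 979. They were thus largest in library 1 of both adult groups. The part of any of these cells in the result was not tested. Cardiomyocyte sums were 321 to 568 in MI P56 with Nr1d1 at 10.5 to 31.9, against 101 to 343 in MI P1 with Nr1d1 at 4.55 to 5.38.

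A ratio of 2 members within a library changes little with the scaling of that library where both values are well above the 1 added to each. Neonatal Dbp, at 0.0343 to 0.474, lay below it, so its ratio does change with scaling. The log2 ratio of Nr1d1 to Arntl, each with 1 added, was -0.49 and -1.88 in neonatal sham, -0.08, 0.16, 0.87 and 0.29 in neonatal MI, 1.80, 1.57, 3.51 and 4.52 in adult sham and -0.03, 2.01 and 3.53 in adult MI libraries. All adult sham ratios were above all neonatal ratios, and MI P56 library 1 alone among the adults lay in the neonatal range. The group means were -1.18 ± 0.98 (SD, n = 2), 0.31 ± 0.40 (n = 4), 2.85 ± 1.41 (n = 4) and 1.83 ± 1.79 (n = 3). For Per2 to Arntl they were -0.71 ± 0.96, 0.39 ± 0.51, 1.28 ± 0.70 and 0.62 ± 1.36. For Dbp to Arntl they were -2.72 ± 0.23, -1.94 ± 0.45, -0.88 ± 1.27 and -1.73 ± 1.45. In sham the ages did not overlap for Per2 to Arntl (-1.39 to -0.03 at P1, 0.69 to 2.15 at P56). Nor did they for Dbp to Arntl (-2.89 to -2.56 at P1, -2.05 to 0.30 at P56). After infarction the ages overlapped for both ratios. The mean for Nr1d1 to Arntl in sham P1 was 1.34 with all 4 libraries, since libraries 1 and 2 had 71 and 6 reads of Nr1d1 and 1 and 0 of Arntl.

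**Figure D4:**
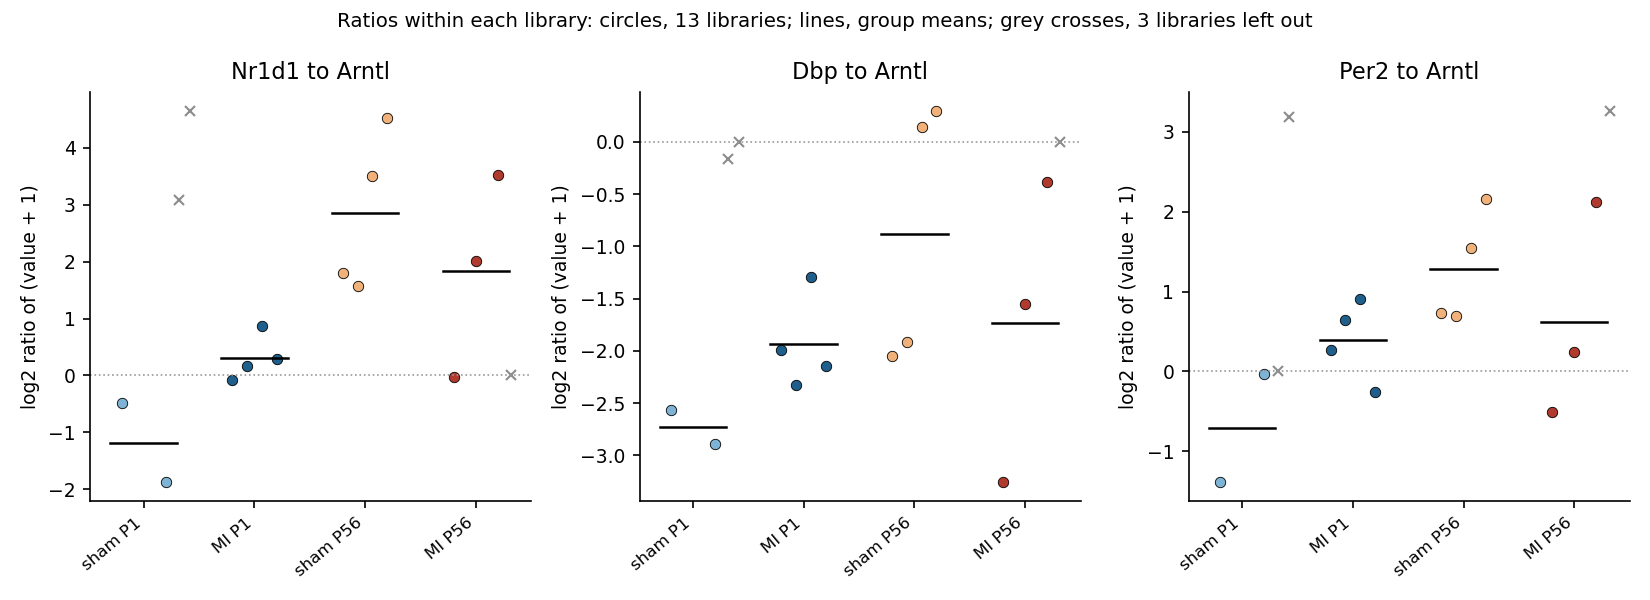
The vertical axis is the log2 ratio of 2 clock genes in the same library, with 1 added to each value, and the horizontal axis is the group. Circles are the 13 libraries, lines are group means and grey crosses the 3 libraries left out. The 4 adult sham circles of Nr1d1 to Arntl lie between 1.57 and 4.52, above the 6 neonatal circles.

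The genes most like Nr1d1 over the 13 libraries, by Pearson's r on log2(value + 1) among 6093 genes with a mean of at least 5, were Mettl7a1 and Xdh (both r = 0.94) and Hmcn2 (r = 0.94). Per3 stood at rank 10 among these genes for Nr1d1 (r = 0.93), Tef was at 0.86, Nr1d2 at 0.83 and Arntl at -0.22. Per2 was at 0.73, Per1 at 0.53 and Clock at 0.22. With all 16 libraries Arntl was at 0.13. The genes most like Dbp were Ablim1, Pdzd2 (both r = 0.92) and Nr1d1 (r = 0.89). Those most like Arntl were Akirin2 (r = 0.81), Gab3 (r = 0.80) and Snap23 (r = 0.79). These libraries share the groups, so r holds the difference between ages. After each group's mean was subtracted, Nr1d1 was at 0.66 with Mettl7a1, 0.52 with Xdh, 0.84 with Nr1d2, 0.71 with Per3 and -0.55 with Arntl. It was then at 0.63 with Tef, 0.03 with both Per1 and Per2, and -0.17 with Clock.

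**Figure D5:**
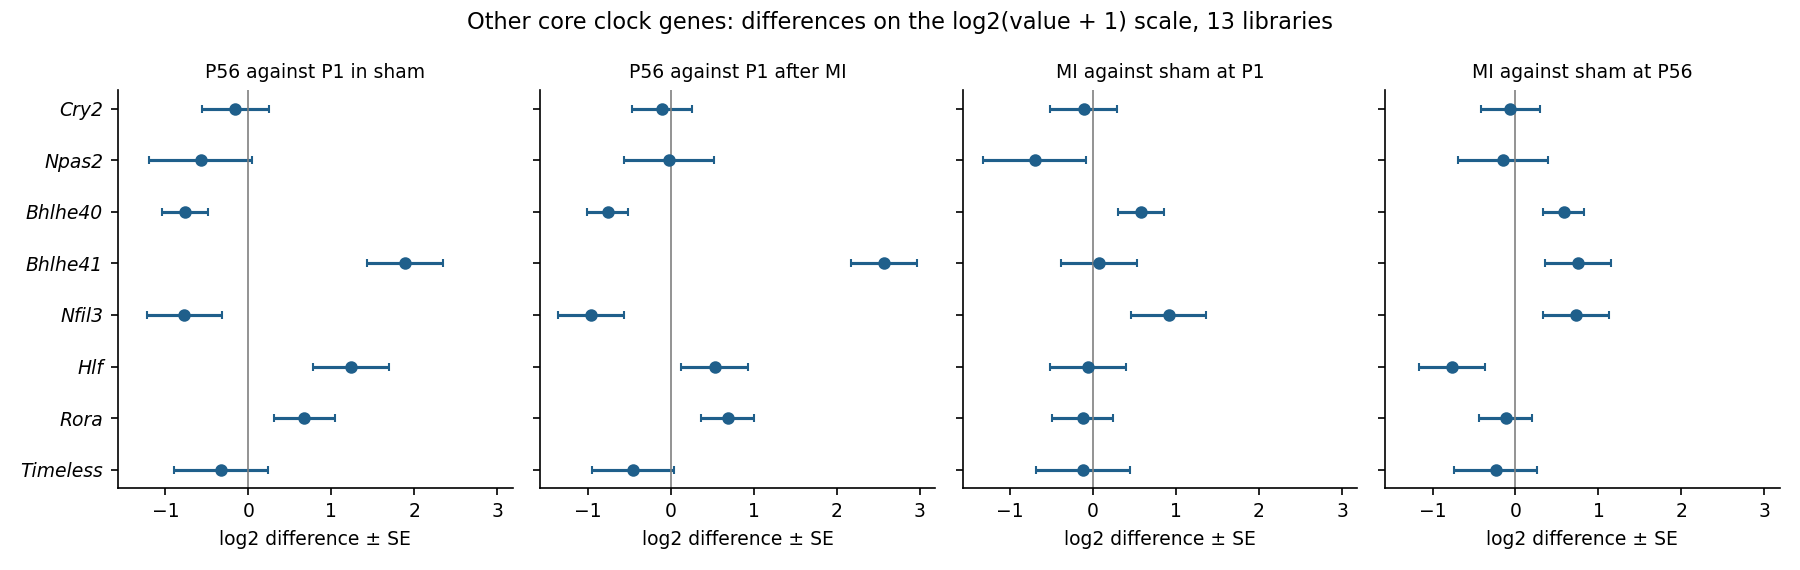
Points are differences between group means on the log2(value + 1) scale with 1 SE for 8 other core clock genes, 1 comparison per panel, 13 libraries. Bhlhe41 stands at 1.89 and 2.57 between the ages, and the other 7 genes lie within 1.3 units of 0 in every panel.

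Other genes of the core loop were tested with the fit across all genes. Of 11 such genes 10 were in the table and 8 passed the filter. Bhlhe41, which encodes the E-box repressor DEC2 (chromosome 6, 145858243 to 145865558, minus strand), was at 1.29 and 1.05 in neonatal sham, at 2.05, 1.87, 0.872 and 0.637 in neonatal MI, at 4.19, 6.44, 10.7 and 8.06 in adult sham and at 9.25, 8.19 and 25.1 in adult MI libraries. All adult libraries were above all neonatal ones. It was higher at P56 in sham (1.89 ± 0.45, limma adjusted p = 0.0085) and after infarction (2.57 ± 0.40, limma adjusted p = 6.2e-04). With all 16 libraries the adjusted p was 0.018 and 0.15, and the call in sham was lost without sham P1 library 3 or 5. A locus on the other strand, Gm43909, shares 1280 bases with its exons.

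The other 7 did not pass in any comparison in limma with the 13 libraries. By DESeq2, Hlf and Bhlhe40 passed between ages in sham (adjusted p = 0.0498 for both). In limma, Hlf and Rora in sham and Bhlhe40 after infarction passed in 1 fit each that left out a sham P56 library, and Bhlhe40 also in the fit of only the groups compared. Hlf, the third PAR bZIP activator, had sham means of 6.65 at P1 and 17.7 at P56 and MI means of 6.86 and 10.0, and differences between ages of 1.24 ± 0.45 in sham (limma adjusted p = 0.082) and 0.53 ± 0.40 after infarction (0.55). Bhlhe40, the paralogue of Bhlhe41, had sham means of 61.4 and 36.2 and MI means of 92.1 and 55.3, with differences of -0.76 ± 0.28 (limma adjusted p = 0.077) and -0.76 ± 0.24 (0.078). Both its age gaps were free of overlap, in the direction opposite to Bhlhe41. Nfil3, a repressor at D-boxes, had sham means of 3.89 at P1 and 1.96 at P56 and MI means of 8.58 and 3.66. Rora, an activator at RORE elements, had sham means of 26.1 and 46.5 and MI means of 24.3 and 39.7. For Npas2, a stand-in for Clock, the sham means were 4.13 and 3.33 and the MI means 1.80 and 1.75. Timeless had sham means of 8.43 and 7.79 and MI means of 7.83 and 5.72. Ciart was under the filter, with group means of at most 0.709.

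Beyond the core loop, 35 genes of the clock's regulation and output were in the lists, of which all were tested. None of 14 kinase, ubiquitin ligase and deubiquitinase genes passed between ages in limma, where 13.2% of all genes passed in sham and 5.35% after infarction. An unadjusted limma p under 0.05 was met by 4 in sham and 2 after infarction, against 3490 and 2353 of all 13033 genes. By edgeR 0 and 0 passed (10.8% and 3.73% of all genes), and by DESeq2 1 and 1 (16.5% and 7.86%). Prkaa2, a catalytic subunit of AMP-activated kinase, which phosphorylates cryptochrome, fell from 10.9 ± 3.86 in sham P56 (n = 4) to 3.58 ± 2.07 in MI P56 (n = 3), by 1.43 ± 0.36 on the log2 scale (limma adjusted p = 0.033). That call was lost when sham P56 library 5 or when either of MI P56 libraries 1 and 3 was left out, by edgeR, and with all 16 libraries (adjusted p = 0.75). Prkaa2 is abundant in heart muscle, and 8 of the 9 cardiomyocyte markers passed with lower values in the same comparison. The part of heart muscle RNA in the fall of Prkaa2 was not tested.

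Of 9 cofactor and chromatin genes, 2 were lower at P56 in sham, where 13.2% of all genes passed. After infarction 1 was lower, where 5.35% of all genes passed. Sfpq, which encodes an RNA-binding protein found in PER complexes, fell from 97.8 ± 9.22 to 38.5 ± 7.29 (-1.34 ± 0.24, limma adjusted p = 8.0e-04), and after infarction from 86.3 ± 17.7 to 47.6 ± 2.82 (-0.83 ± 0.21, adjusted p = 0.024). Its partner Nono fell in sham from 30.7 ± 2.12 to 14.9 ± 3.63 (-1.02 ± 0.27, limma adjusted p = 0.016), a call lost without sham P1 library 3 or 5. The call of Sfpq after infarction was lost in 5 of 13 fits that each left out 1 library, and with all 16 libraries neither gene passed (adjusted p between 0.22 and 0.79).

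Of 12 output genes that cycle in many tissues, 2 were higher and 2 lower at P56 in sham, and as many after infarction. Over all genes 13.2% passed in sham and 5.35% after infarction. Tns2, which encodes the adhesion protein tensin 2, rose from 19.8 ± 1.31 to 83.3 ± 9.57 in sham (2.01 ± 0.24, limma adjusted p = 2.5e-05) and from 21.7 ± 5.42 to 53.1 ± 6.57 after infarction (1.27 ± 0.21, adjusted p = 0.0012). Klf9, a transcription factor under both clock and glucocorticoid control, rose from 31.5 ± 9.27 to 78.3 ± 25.0 in sham (1.26 ± 0.34, limma adjusted p = 0.016) and from 18.7 ± 6.18 to 42.9 ± 15.2 after infarction (1.15 ± 0.30, adjusted p = 0.027). Coq10b and Lonrf3 fell in sham (-1.36 ± 0.36 and -0.98 ± 0.31, limma adjusted p = 0.015 and 0.041). Lonrf3 was near the filter's value of 1, at 1.44 ± 0.12 in sham P1 and 0.232 ± 0.050 in sham P56. It passed the filter without any sham P56 library and in part through sham P1, where it is high, so its call carries that choice. Klf10 and Pim3 fell with age after infarction (-1.57 ± 0.38 and -1.27 ± 0.32, limma adjusted p = 0.017 and 0.026). Of the 13 fits that each left out 1 library, Tns2 kept both calls in all, Klf9 lost its call in 1 in sham and in 5 after infarction, Coq10b and Klf10 lost theirs in 2 each, and Lonrf3 and Pim3 in 6 each. With all 16 libraries Tns2 in sham alone passed of these genes (adjusted p = 0.031).

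Over the 43 tested genes of these 4 clock lists, 3 were higher and 4 lower at P56 in sham, where 13.2% of all genes passed. After infarction 3 were higher and 3 lower, where 5.35% of all genes passed. The 43 genes had median differences of -0.10 and -0.06, against 1.16 and 0.68 for the 10 members, whose choice used these comparisons. For infarction, 0 passed at P1 and 0 for the difference of the responses in limma, edgeR and DESeq2. An unadjusted limma p under 0.05 was met by 2 in each, where 3.72% and 10.9% of all genes met it. At P56 1, Prkaa2, passed in limma (3.42% of all genes), 0 by edgeR (2.62%) and 2 by DESeq2 (6.64%). There 10 had an unadjusted limma p under 0.05, as did 17.1% of all genes.

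Genes that answer to glucocorticoid moved in both directions with age. Of 12, 4 rose in sham (Fkbp5, Tsc22d3, Zbtb16 and Klf9) and 4 fell (Sgk1, Dusp1, Mt1 and Nfkbia). Tsc22d3, which encodes the steroid-induced protein GILZ, went from 3.04 ± 0.57 to 19.0 ± 6.45 (2.26 ± 0.41, limma adjusted p = 8.8e-04), and Sgk1, a kinase, from 90.8 ± 32.8 to 28.5 ± 7.83 (-1.63 ± 0.31, limma adjusted p = 0.0015). Without sham P1 library 3 the call of Sgk1 was lost, and those of Mt1 without library 3 or 5. After infarction 2 rose with age (Tsc22d3 and Klf9) and 2 fell (Sgk1 and Nfkbia). Over all genes 13.2% passed in sham and 5.35% after infarction, and with all 16 libraries 3 of the 12 passed in sham and 0 after infarction. For MI against sham at P56, 3 of the 12 passed, all higher, where 3.42% of all genes passed. These were Mt2, Mt1 and Errfi1 (1.95, 1.62 and 1.02), and with all 16 libraries 0 passed. Mt1 lost this call without MI P56 library 1 or 3, and Errfi1 without library 1. At P1 0 of the 12 passed for infarction. Per1, which belongs to this class too, had age differences of 0.66 and 0.89.

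Immediate early genes, which dissociation of tissue can induce within minutes, were lower at P56 in the same libraries. Of 19 tested, 16 fell with age in sham and 13 after infarction, and none rose, with medians of -2.83 and -1.72, where 13.2% and 5.35% of all genes passed. By edgeR 15 and 10 passed, and with all 16 libraries 9 and 1. Infarction went with higher values at P56, where 6 of the 19 passed, with a median of 0.85, and 3.42% of all genes passed. Among these were Myc, Egr2, Nr4a2 and Ier3 (1.58, 2.50, 1.87 and 1.53). By edgeR 3 passed there, and with all 16 libraries 0. At P1 0 of the 19 passed for infarction, as did 0% of all genes. Fosb, a subunit of AP-1, was at 171 ± 7.38 in neonatal and 5.45 ± 5.31 in adult sham, and at 391 ± 130.4 in neonatal and 19.5 ± 9.61 in adult MI libraries (age difference in sham -5.16 ± 0.58, limma adjusted p = 1.3e-05). Per1 and Per2, which are also induced in this manner in many cells, had higher means at P56 in both surgeries. The part of digestion in the clock genes was not tested, since it is tied to age.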

How the data were processed

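The labels' protocols describe trizol RNA, NuGEN amplification and libraries, and single reads on an Illumina instrument. The submitters' processing notes name Trimmomatic, STAR, HTSeq, edgeR and the genome build mm10 (GRCm38). The authors deposited 1 table of signal values (normalised read counts that they named CPM) for 15895 genes and 16 libraries. Within each library, all values were multiples of what 1 read is worth, to within 0.01 read for all but 1 of 254320 values. The design had allowed for plain CPM. Whole reads were recovered from the constants for depth, edgeR and DESeq2. The members, the gene lists and the set of 13 libraries with a read on at least 10000 genes were chosen with earlier results of these data known.

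limma-trend (limma 3.58.1, R 4.3.3) was fitted across the 4 groups to log2(value + 1), for genes at 1 or more in at least 4 libraries (13033 genes), and a gene passed where its two-sided p, adjusted by Benjamini-Hochberg across the genes tested, was under 0.05. Differences on this scale understate changes of low genes. Alternatives were all 16 libraries, edgeR 4.0.16 (quasi-likelihood), DESeq2 1.42.0, median-of-ratios and quantile scaling, pseudocounts of 0.25 and 4, other filters, fits of the compared groups, a replicate block, and each library left out. The code was tested on simulated counts. Named list genes are those that passed, at most 4 per list and comparison by smallest p, and the core clock genes in the table, of which 1 is not reported here. Fkbp5, Zbtb16 and Dusp1 were named to complete a count. Exon lengths and overlaps are from GENCODE M21, and gene coordinates are those of the table.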

Additional observations from a re-analysis of the deposited data

Results flagged for a closer look

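In groups of 4 libraries the highest or lowest value was compared with the nearest of the others, over 40 such groups for the 10 members and 10 other core clock genes, and 3 stood apart by Dixon's criterion, which chance alone meets in about 1 of 20 groups. All 3 concern sham P56 library 2, which had a read on 14121 genes, the fewest of the 13 libraries. Per1 was at 7.63 there, with the nearest other library at 15.4. Cry1 was at 0, with the nearest at 1.59. Npas2 was at 10.4, the highest of its group, with the nearest at 1.50. Arntl was also highest in that library, at 10.1, without meeting the criterion. The cause was not tested.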

How the results depend on the processing

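The age difference in sham kept its sign for 8 of the 10 members in every alternative that gave a value, and changed it for Arntl (0.95) and Clock (1.09) with all 16 libraries, and for Clock, at -0.01, in 2 other alternatives. Using all 16 libraries also changed the sign of MI against sham at P1 for Nr1d1 (-0.25), Arntl (0.78) and Clock (0.88), of MI against sham at P56 for Per1 (-0.59) and Arntl (-0.39), and of age after MI for Per1 (-0.19) and Arntl (-0.21). Leaving out 1 library turned differences of MI against sham for Nr1d2, Per2 and Per3 at P1 and for Per3, Arntl and Clock at P56. Of 1232 member values under alternatives, 1160 moved by less than 1 SD between replicates and 72 by more. Of 1823 values of list genes, 111 lost and 6 gained a call. Counts of genes that passed were, for MI against sham at P1 (0), 7 by DESeq2, 2 with quantile normalization, 2 with a pseudocount of 0.25, 1 with a value of at least 5 in 4 libraries, 8 in a fit of only the groups compared, and 0 to 2 without 1 library. For MI against sham at P56 (446) they were 23 with all 16 libraries, 866 by DESeq2, 153 with only the groups compared and 143 to 645 without 1 library. For the difference of the responses (63) they were 1 with all 16 libraries, 324 by DESeq2, 34 with a pseudocount of 4 and 1 to 228 without 1 library. For age in sham (1716) they were 518 with all 16 libraries, 728 with only the groups compared and 644 to 2270 without 1 library. For age after MI (697) they were 14, 1136, and 317 to 1344, in that order. Of 43 other clock genes, 1 passed for MI at P56, and 0 did with all 16 libraries, by edgeR or with only the groups compared, 2 by DESeq2 and 0 to 1 without 1 library. Of these, 7 passed for age in sham, and 2 did with all 16 libraries, 4 with only the groups compared and 2 to 9 without 1 library. For age after MI 6 passed, and 0 with all 16 libraries and 2 to 8 without 1 library. The log2 ratio to Arntl in sham P1 was 1.34 for Nr1d1, -1.40 for Dbp and 0.44 for Per2 with all 16 libraries. For Dbp it was -4.28 in sham P1 and -3.12 in MI P1 with a pseudocount of 0.25, and -1.31 and -0.87 with one of 4. With 16 libraries the median of all genes shifted by up to 0.50 in size. The causes were not tested, apart from the smaller number of libraries or genes that some settings use.

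The numbers were not taken to pair the libraries, since r of the deviations of libraries with the same number ran from -0.11 to 0.10 over 9 pairs, against -0.07 to 0.08 over 18 pairs with different numbers. Among adult libraries the 3 pairs with the same number were at 0.10, 0.05 and 0.09 and the 6 others between -0.07 and -0.01. Each correlated best with its own number there, a hint from the data and not the design. Subtracting the mean of 3 libraries ties these values together, so the negative ones add nothing separate. Same-number pairs of MI P1 with MI P56 were at -0.06, -0.02 and -0.11, and with sham P56 at 0.01, 0.04 and -0.02. With the replicate number as a block, in the numbered libraries, 276 genes passed for MI at P56, 2 for the difference of the responses, 290 for age in sham and 335 for age after MI, against 256, 4, 444 and 321 in the same libraries without the block, a comparison added after the data had been seen. Of the other clock genes 0, 2 and 3 passed with the block for MI at P56, age in sham and age after MI, against 0, 3 and 2 without it. Depth limits Dbp in neonatal cells, with 1 to 27 reads, and most members in the 3 libraries left out (Nr1d2, Cry1 and Nr1d1 had 711, 251 and 71 reads in sham P1 library 1), where 3 reads correspond to values of 0.359 to 12.9.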
